A study of Mus musculus with 5 samples.

Results

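The genes described here are the receptors for the constant (Fc) part of IgG and the first steps of their signalling in mouse aortic cells: the activating receptors Fcgr1, Fcgr3 and Fcgr4, the inhibitory receptor Fcgr2b, the shared signalling chain Fcer1g, and the kinases Fgr and Syk. They are 7 of the 26189 genes counted, chosen by name with earlier results of these data in view, so their levels are given as a description and without a test. The study asked what serum amyloid A3 (Saa3), an acute-phase protein, does in aortic immune cells during atherosclerosis. It did so by single-cell RNA sequencing on the BD Rhapsody platform, in which cells of several sources carry sample tags and are run together. Female mice, 12 weeks old per the labels, were either wild-type C57BL/6J or Saa3-/- littermates labelled C57BL/6N-Saa3tm1.1(KOMP)Vlcg/MbpMmucd. Both groups received 1 intraperitoneal injection of an adeno-associated virus that induces atherosclerosis and is driven by hAAT, a liver promoter, and ate a Western diet for 18 weeks. The aortic arches were digested and cells that were CD45-positive and negative for the Live/Dead dye were sorted. Every cell analysed therefore came from an animal given both the virus and the diet, whichever the genotype, and no arch without the virus or the Western diet was analysed here.

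There is 1 pool of cells for each genotype. The number of mice in a pool is not given in the sources used here, so no spread between animals can be set beside any difference, and no p-value is given. Intervals in brackets are exact 95% intervals, Poisson for levels and Clopper-Pearson for shares, and they cover counting error only. The share of all genes whose intervals do not overlap between pools was not counted. The pool labelled wild-type held 889 cells and the pool labelled Saa3-/- held 854, with 0 cell indices in common. After removal of cells with more than 25% of molecules from mitochondrial genes, 833 and 823 cells were left, with a median of 6415 and 4698 molecules. The genotype of a pool is known only from the name of its table. Over all cells Saa3 stood at 148 CPM (molecules of a gene per 1000000 molecules of the cells summed) in the pool labelled wild-type and 242 CPM in the pool labelled Saa3-/-, which goes against the labels, and 1124 of the 1268 Saa3 molecules of the latter lay in 2 cells. Within macrophages Saa3 was 330 CPM in the pool labelled wild-type and 29.3 CPM in the pool labelled Saa3-/-, in the direction of the labels. But in the pool labelled wild-type 5 of 217 macrophages held 79.2% of the 862 molecules, and the highest cell held 244. Saa3 was found in 24.9% and 19.2% of macrophages, and in 9.27% and 10% once cells were thinned to equal depth. So the level in the direction of the labels also rests on a few cells. All directions below are between pools as they are labelled.

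Cells were sorted into 14 types by fixed marker genes, and 1455 of the 1656 cells passed a gate. The macrophage gate held 363 cells, and its marker C1qb, a complement subunit made by tissue macrophages, was 4741 CPM there against 453 CPM in all other cells. The monocyte gate held 74 cells, the dendritic cell gate 57, the neutrophil gate 23, the mast cell gate 10, the natural killer (NK) cell gate 23, the B cell gate 165 and the T cell gate 287. Fibroblast (155) and smooth muscle (168) gates also held cells although the sort was for CD45. The CD45 gene Ptprc was at 106 and 121 CPM in them against 805 CPM in macrophages. No doublet caller was run, and 197 gated cells also passed the gate of another lineage.

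Fc receptors on myeloid cells bind antibody that coats particles or sits in immune complexes, and so join antibody to phagocytosis and inflammation. FcγRI (Fcgr1), FcγRIII (Fcgr3) and FcγRIV (Fcgr4) have no strong signalling motif of their own and pair with the Fc receptor γ chain (Fcer1g), whose activation motif (ITAM) is phosphorylated by Src family kinases and then bound by the kinase Syk. FcγRIIb (Fcgr2b) carries an inhibitory motif (ITIM) that recruits phosphatases and sets the threshold for the activating receptors. Fgr is a Src family kinase of granulocytes, monocytes and macrophages. In atherosclerotic arteries, immune complexes that contain oxidised lipoprotein are among the known ligands of these receptors.

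On the GRCm38 build, 4 of the 7 genes lie within 275.7 kb of chromosome 1. Fcgr2b is at chr1:170958617-170976547 on the minus strand, Fcgr4 at chr1:171018920-171029761 on the plus strand, Fcgr3 at chr1:171051174-171064935 on the minus strand and Fcer1g at chr1:171229572-171234365 on the minus strand. Fcgr1 is at chr3:96282909-96293969 on the minus strand, Fgr at chr4:132974095-133001910 on the plus strand and Syk at chr13:52583173-52648792 on the plus strand. Fcgr3 and Fcgr2b are near copies in part of their transcripts, and 166 of the 1733 stretches of 50 bases in Fcgr3 transcripts (9.58%) also occur in Fcgr2b, so reads there cannot be given to 1 of the 2 genes by sequence. In Fcgr2b transcripts 249 of 5685 stretches (4.38%) also occur in other genes, and only 166 of these in Fcgr3. The other 5 genes share 0 such stretches with any other gene. An antisense gene, Gm38204, overlaps Fcgr2b and held 2 molecules. Whether counting used strand is not given in the sources used here.

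The promoters of Fcgr1 and Fcgr4 are shown because Fcgr4 differed most between the pools in monocytes and in resident macrophages, while Fcgr1 alone held both motifs searched. The sequences are from RefSeq on GRCm38.p6 and give the 120 bases before the gene positions above, read 5′ to 3′ on the gene's strand. Counted from the start used for the windows below, they run from -120 to -1 for Fcgr1 and from -126 to -7 for Fcgr4. Fcgr1 is chr3:96293970-96294089 on the minus strand and Fcgr4 is chr1:171018800-171018919 on the plus strand. Capitals mark TTCNNNGAA, the gamma-activated sequence of interferon-γ response genes, and TTCCTC, which is GAGGAA, the core of sites of the myeloid factor PU.1, read on the other strand.
Fcgr1: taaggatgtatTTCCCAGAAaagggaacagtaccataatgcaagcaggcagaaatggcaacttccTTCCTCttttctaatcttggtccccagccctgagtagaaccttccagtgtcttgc
Fcgr4: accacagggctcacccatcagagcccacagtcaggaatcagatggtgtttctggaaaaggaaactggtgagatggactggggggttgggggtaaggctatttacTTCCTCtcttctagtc
In windows from 250 bases before to 50 bases after the start, searched on both strands, GAGGAA was in the windows of 5 of the 7 genes and in 28.3% of all 32817 promoter windows. The 7 genes have 9 windows, since Fcgr3 and Syk have 2 each, so a count by gene cannot be read against a share of windows. An annotated exon lies within the bases before the start in every window except those of Fcgr1 and Fgr. TTCNNNGAA was in the window of 1 of the 7, Fcgr1, and in 8.29% of all windows. The 2 motifs do not overlap in the stretches shown. A match gives letters only and no binding was measured.

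The first question was which cells of the arch held these transcripts. Orders of levels cover the gates with at least 20 cells, and leave out mast cells (10), plasma cells (9) and endothelial cells (12). All 7 genes were at least 4-fold higher in macrophages than in T cells in both pools, and 6.72% of the 9054 genes compared were as well. T cells serve as the reference because most lack Fc receptors for IgG. The excess of Fcgr3 over T cells was 27.3-fold in the pool labelled wild-type and 50.1-fold in the pool labelled Saa3-/-. T cells held only 2 to 4 molecules of Fcgr1 and Fcgr4 in a pool, so these ratios are wide. That of Fcgr1 was 19.6-fold [8.54 to 81.5] and 31.6-fold [10.7 to 328], and that of Fcgr4 25.5-fold [10.1 to 145] and 21.7-fold [8.45 to 124]. Fcgr2b was 20.1-fold and 18.6-fold higher, Fcer1g 15.1-fold and 14.8-fold, and Syk 16.4-fold and 11.0-fold. Fgr had the narrowest excess in the pool labelled wild-type, 4.10-fold [2.43 to 8.12], against 13.7-fold [4.5 to 143] in the pool labelled Saa3-/-, where T cells held 2 Fgr molecules. In monocytes over T cells 6 genes were compared and all 6 were at least 4-fold higher in both pools (4.41% of 5936 genes higher, 4.57% lower).

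**Figure D1:**
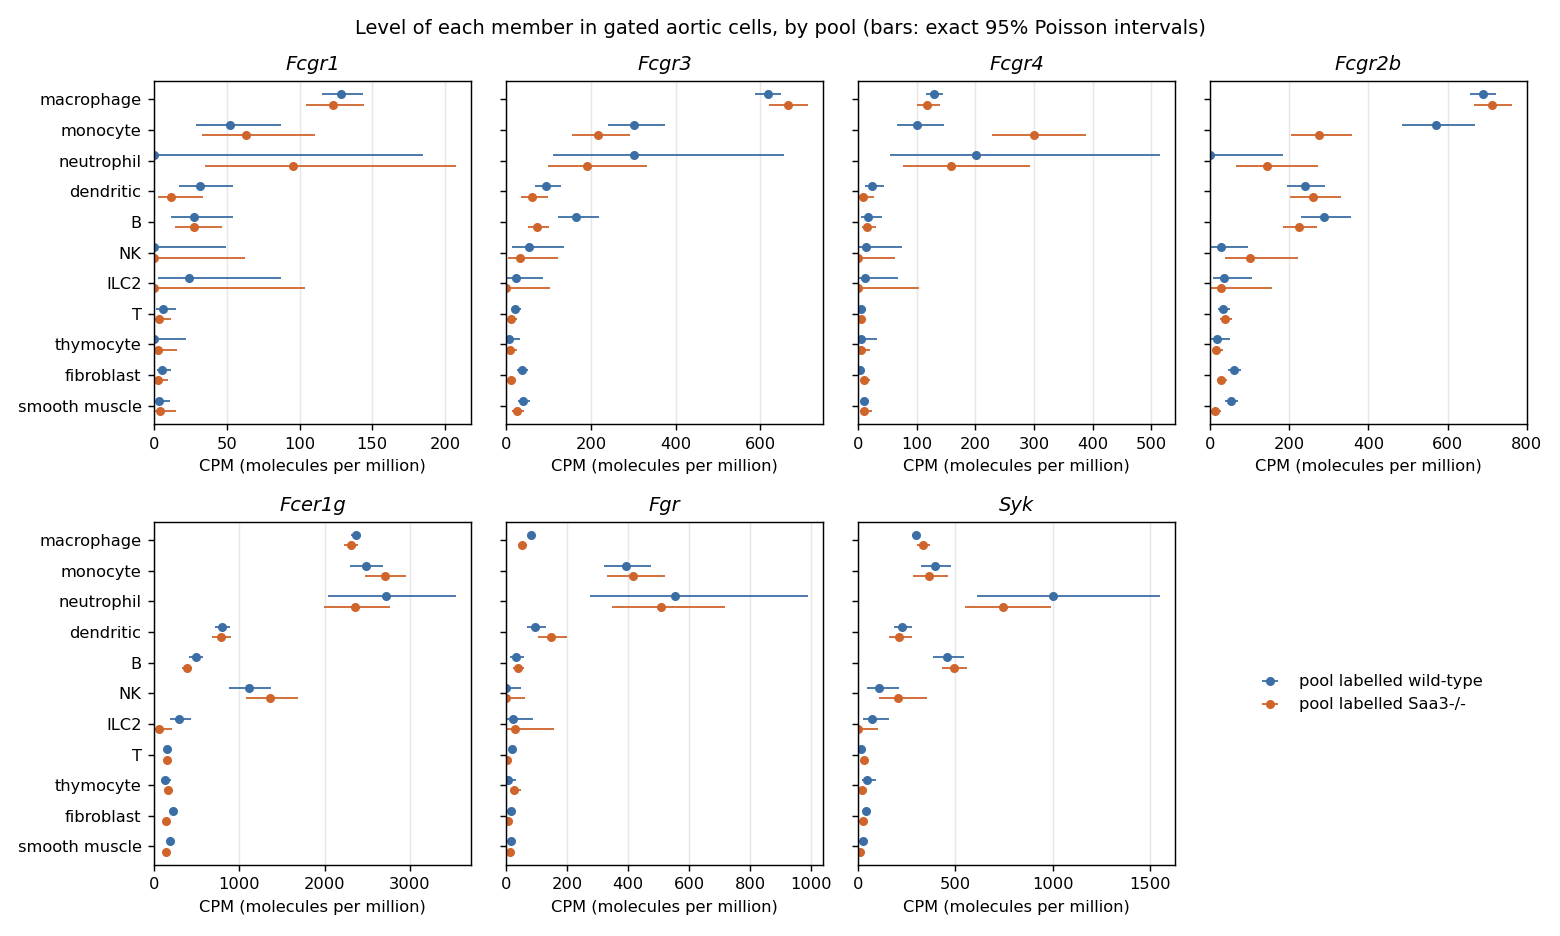
Levels of the 7 genes (CPM, linear axes that differ between genes) by cell type in the pools labelled wild-type and Saa3-/-, with exact 95% Poisson intervals that cover counting error only. The 3 receptors Fcgr1, Fcgr3 and Fcgr2b are highest in macrophages (127, 633 and 696 CPM over both pools), and Syk stands at 479 CPM in B cells.

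Fcgr1 encodes the high-affinity IgG receptor. It was highest in macrophages, at 127 CPM over both pools, and lower in monocytes, at 56.8 CPM. Neutrophils stood between these at 72.5 CPM, but all 6 of their molecules lay in 1 of 23 cells. Their interval, 26.6 to 158 CPM, covered both and takes no account of this. B cells (27.3 CPM) and dendritic cells (23.9 CPM) were lower again. When each cell was thinned to 3000 molecules, so that depth was equal, an Fcgr1 molecule was found in 25.9% of macrophages of the pool labelled wild-type and 29.2% of those labelled Saa3-/-, against 2.78% and 0.806% of T cells.

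Fcgr3, the low-affinity activating receptor, was also highest in macrophages. It was 633 CPM in macrophages, 266 CPM in monocytes and 217 CPM in neutrophils, and the last 2 did not differ beyond their intervals. B cells had 108 CPM, dendritic cells 82.0 CPM and NK cells 44.8 CPM. Gates too small to be ranked held Fcgr3 too. The 10 mast cells held 43 molecules of the 3 activating receptors, 93.0% of them Fcgr3, and the 9 plasma cells 106, 77.4% of them Fcgr3. But 4 of these mast cells and 8 of these plasma cells also passed the gate of another lineage. Monocytes were 2.03-fold lower than macrophages in the pool labelled wild-type and 3.04-fold lower in the pool labelled Saa3-/-. At least 2-fold lower in both pools were 5.45% of the 8093 genes compared. Dendritic cells were 6.41-fold and 10.5-fold lower than macrophages. In that comparison 5 of the 7 genes (Fcgr1, Fcgr3, Fcgr4, Fcgr2b and Fcer1g) were at least 2-fold lower in both pools and 0 higher, against 7.16% and 3.5% of 8286 genes. At equal depth 82.0% and 75.4% of macrophages held an Fcgr3 molecule, against 5.56% and 2.42% of T cells.

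Fcgr4, the receptor of intermediate affinity that mice carry on monocytes, macrophages and neutrophils, had another order. Monocytes (183 CPM), neutrophils (169 CPM) and macrophages (126 CPM) stood above dendritic cells at 17.9 CPM. The neutrophil interval, 92.4 to 284 CPM, covered the other 2, while those of monocytes (146 to 227 CPM) and macrophages (115 to 138 CPM) do not overlap. The 14 Fcgr4 molecules of neutrophils lay in 4 of 23 cells, and the highest cell held 9. Monocytes and macrophages stood apart only in the pool labelled Saa3-/-. There monocytes were 2.56-fold above macrophages, 300 CPM [228 to 389] against 118 CPM [99.7 to 139]. In the pool labelled wild-type they were at 101 CPM [66.3 to 146] against 130 CPM [117 to 145], with intervals that overlap. At equal depth 27.8% and 25.4% of macrophages held an Fcgr4 molecule. The share of T cells was 0.926% in the pool labelled wild-type and 0 of 124 cells in the pool labelled Saa3-/-. At 3 cells, the number a count of 0 can hide, that allows up to 2.42%.

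Fcgr2b, the inhibitory receptor, followed the order macrophages (696 CPM), monocytes (448 CPM), B cells (249 CPM) with dendritic cells (248 CPM), and neutrophils (109 CPM). Of the gates too small to be ranked, mast cells had 439 CPM and plasma cells 363 CPM, both above B cells. But 4 of the 10 mast cells and 8 of the 9 plasma cells also passed the gate of another lineage. C1qb, a macrophage marker, was 1188 and 2268 CPM in these gates, and the part of macrophages in their Fcgr2b was not tested. In B cells, where FcγRIIb is the main IgG receptor, the levels were 288 CPM and 224 CPM in the pools labelled wild-type and Saa3-/-. At equal depth 36.1% and 37.3% of B cells held Fcgr2b and none of the 3 activating receptors. The same pattern was seen in 4.88% and 9.23% of macrophages. Most macrophages held both kinds of receptor, 72.7% [66.0 to 78.7] in the pool labelled wild-type and 66.2% [57.3 to 74.2] in the pool labelled Saa3-/-.

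Fcer1g, the γ chain, was broadest. Monocytes (2577 CPM), neutrophils (2440 CPM) and macrophages (2351 CPM) had like levels, followed by NK cells (1218 CPM), dendritic cells (791 CPM) and B cells (422 CPM). Dendritic cells were 2.99-fold and 2.93-fold below macrophages. The 10 mast cells, in which the γ chain serves the IgE receptor, had 2002 CPM of Fcer1g and 2366 CPM of the IgE receptor gene Fcer1a. T cells held 156 and 155 CPM, and 33.3% and 37.1% of them had a molecule at equal depth, the highest such share among the 7 genes.

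The kinases differed in where they were found. Fgr was highest in neutrophils (519 CPM) and monocytes (402 CPM), whose intervals overlap, then 115 CPM in dendritic cells, 71.8 CPM in macrophages and 35.1 CPM in B cells. NK cells held 0 molecules in 23 cells, which at the 3 molecules a count of 0 can hide allows up to 22.4 CPM. Monocytes exceeded macrophages by 4.86-fold and 7.85-fold in the 2 pools, where 3.74% of genes were at least 2-fold higher in both. Of the 7 genes, Fgr was the only one past that limit upwards and Fcgr3 the only one past it downwards. Syk stood at 809 CPM in neutrophils, 479 CPM in B cells, 382 CPM in monocytes, 310 CPM in macrophages, 221 CPM in dendritic cells and 149 CPM in NK cells. B cells, monocytes and macrophages overlapped with a neighbour. In B cells Syk serves the antigen receptor, and it was 25.3-fold and 16.1-fold above T cells, where 2.53% of 6455 genes were at least 4-fold higher in both pools and 3.19% lower. Fcgr2b passed that limit too, at 8.45-fold and 5.88-fold. So did Fcgr3, at 7.35-fold and 5.6-fold, but 8 and 12 B cells held all its molecules and 5 cells held 93.8% and 80.0% of them. Macrophage markers summed to 2991 and 1619 CPM in the B cell gate (8 of 8 detected in both pools), and their part in the Fcgr3 level was not tested.

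The share of each transcript held by a cell type differed between pools. Macrophages were 26.1% of cells in the pool labelled wild-type and 17.7% in the pool labelled Saa3-/-. They held 78.7% and 76.0% of Fcgr3 molecules, 81.4% and 71.6% of Fcgr1, 70.6% and 63.0% of Fcgr2b, 68.5% and 55.6% of Fcer1g, and 55.6% and 41.5% of Syk. The gap was wider for Fcgr4, 79.3% and 54.3%, and for Fgr, 41.6% and 19.8%. Monocytes were 4.44% and 4.5% of cells and held 6.29% of Fcgr4 molecules in the pool labelled wild-type and 21.3% in the other. B cells held 9.54% and 23.6% of Syk.

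The second question was whether macrophages of the 2 pools differed. The receptors and the γ chain did not differ by more than 1.5-fold. Fcgr1 was 129 CPM [115 to 143] in the pool labelled wild-type and 123 CPM [104 to 144] in the pool labelled Saa3-/-. Fcgr3 was 618 CPM [588 to 649] and 665 CPM [620 to 712]. Fcgr4 was 130 CPM [117 to 145] and 118 CPM [99.7 to 139]. All 3 pairs of intervals overlap, and the log2 differences were -0.06, 0.11 and -0.13. The inhibitory Fcgr2b was 688 CPM [657 to 721] and 713 CPM [667 to 762], a log2 difference of 0.05. Fcer1g was 2371 and 2309 CPM, and Syk 298 and 336 CPM, with log2 differences of -0.04 and 0.17. For Fcgr3, the interval of the log2 difference, -0.02 to 0.23, does not reach 1.5-fold in either direction, and the same holds for Fcgr2b (-0.07 to 0.17), Fcer1g (-0.10 to 0.03), Syk (-0.00 to 0.35), Fcgr1 (-0.35 to 0.21) and Fcgr4 (-0.43 to 0.15). These bounds are on counting error alone.

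Fgr was lower in macrophages of the pool labelled Saa3-/-, at 53.0 CPM [40.9 to 67.5] against 80.7 CPM [70.2 to 92.4], from 65 and 211 molecules. The difference was 1.51-fold, or -0.60 on the log2 scale [-1.03 to -0.20], and the intervals of the 2 levels do not overlap. It was 1 of the 7 genes past 1.5-fold, and it was lower. Among the 7764 genes with at least 50 molecules, 4.65% were at least 1.5-fold lower and 5.82% at least 1.5-fold higher. The median log2 difference was -0.04 for the 7 genes and 0.03 for all genes, and Fgr stood at the 4.35th percentile of all genes. With 7 genes, 1 past the limit says nothing of the set as a whole.

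The lower Fgr level went with fewer cells that held the transcript. A molecule was found in 38.7% of macrophages of the pool labelled wild-type and 21.9% of those labelled Saa3-/-. At equal depth these shares were 17.6% [12.6 to 23.5] (36 of 205 cells) and 8.46% [4.30 to 14.6] (11 of 130), with intervals that overlap. In T cells they were 3.70% and 0.806%. The molecules were also more concentrated in the pool labelled Saa3-/-, where 5 cells held 41.5% of them against 16.6%. Over 11 other ways of processing, the log2 difference ran from -1.02 with cells thinned to equal depth to -0.58 with macrophages taken from clusters, which is just inside 1.5-fold. Without the 2 highest cells of each pool it was -0.85. Monocytes are rich in Fgr, and 22 and 9 macrophage-gated cells also passed the monocyte gate. Without these the difference was -0.61. Monocyte markers summed to 543 and 577 CPM in the macrophage gate (10 of 10 detected in both pools). Neutrophil markers summed to 135 and 107 CPM (6 of 7 detected). Ly6g was at 0, but it was found in only 17.4% of neutrophils themselves.

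**Figure D2:**
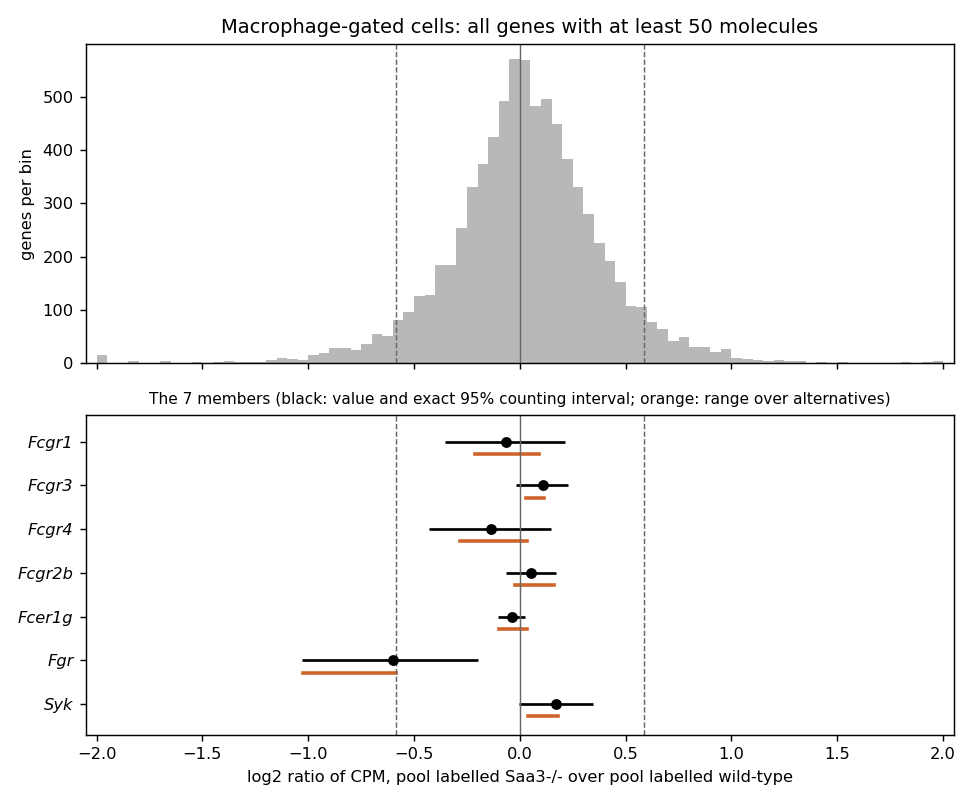
Log2 difference between macrophages of the pool labelled Saa3-/- and the pool labelled wild-type for each of the 7 genes, with the counting interval and, in orange, the range over alternatives, beside the distribution of all 7764 genes, whose outermost bars collect genes beyond the axis. Dashed lines mark 1.5-fold, and Fgr alone lies past the lower line, at -0.60.

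Macrophages are not 1 population, and the gated cells were divided by marker genes into resident cells (Lyve1, Folr2, F13a1 and others), lipid-laden cells (Trem2, Gpnmb, Spp1 and others), inflammatory cells and cells that met none of these. The pools labelled wild-type and Saa3-/- had 56 and 30 resident, 27 and 33 lipid-laden, 38 and 39 inflammatory and 96 and 44 other macrophages. Fcgr1 was 167 CPM in resident and 181 CPM in lipid-laden cells, against 92.7 CPM in inflammatory and 89.8 CPM in other macrophages, over both pools. The excess of resident over the remaining macrophages was 1.44-fold and 1.48-fold in the 2 pools, short of the 1.5-fold limit. It was 1.68-fold and 1.75-fold once cells that pass another lineage's gate were left out.

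Fgr was the 1 gene of the 7 past 1.5-fold in both pools between resident cells and the remaining macrophages, at 2.00-fold and 1.95-fold lower, where 5.82% of genes were at least 1.5-fold lower and 5.42% higher. The fold in the pool labelled Saa3-/- rests on 6 Fgr molecules in 3 of 30 resident cells (27.9 CPM [10.2 to 60.6]). In lipid-laden cells 0 of the 7 passed in both pools (5.68% of genes higher, 6.88% lower), and in inflammatory cells 0 of the 7 (2.78% higher, 3.99% lower). Fgr was higher in lipid-laden than in the remaining macrophages by 1.41-fold in the pool labelled wild-type and 3.44-fold in the pool labelled Saa3-/-. In each pool 5 lipid-laden cells held most of these molecules, 59.1% and 62.5%. Fgr passed the limit in both pools when cells of another lineage's gate were left out.

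Within subsets, the difference in Fgr between pools was uneven. In inflammatory macrophages Fgr was 79.5 CPM (42 molecules) and 24.7 CPM (8 molecules), 3.07-fold lower in the pool labelled Saa3-/-. In other macrophages it was 93.7 CPM (95 molecules) and 36.7 CPM (11 molecules), 2.45-fold lower. Neither pair of intervals overlaps. Few cells held these molecules: 17 of 38 and 5 of 39 inflammatory cells, and 40 of 96 and 10 of 44 other macrophages. In resident cells, at 45.6 and 27.9 CPM (30 and 6 molecules), and in lipid-laden cells, at 106 and 103 CPM (44 and 40 molecules), the intervals overlap. Whether the difference varies between subsets was not tested, since there is 1 pool a genotype. Lipid-laden cells were 12.4% of macrophages in the pool labelled wild-type and 22.6% in the pool labelled Saa3-/-, and other macrophages 44.2% and 30.1%. Fgr was 1 of 7 past 1.5-fold in inflammatory cells (10.2% of 3051 genes lower, 8.23% higher) and 1 of 7 in other macrophages (8.36% of 4365 lower, 11.2% higher). In lipid-laden cells 0 of 7 passed (14% of 2877 genes lower, 6.67% higher).

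Fcgr4 in resident macrophages differed more than any of the 7 in any subset. It was 105 CPM [81.6 to 133] in the pool labelled wild-type and 18.6 CPM [5.06 to 47.5] in the pool labelled Saa3-/-, 5.06-fold lower, from 69 and 4 molecules. It was found in 22 of 56 cells and 4 of 30. In the pool labelled wild-type 5 cells held 56.5% of the molecules and the highest cell held 15, so a few cells set much of that level. It was 1 of 6 genes compared there that passed 1.5-fold, where 9.11% of 3052 genes were at least that much lower and 12.5% higher. Fcgr4 was not lower in the other subsets beyond counting error: it was 169 and 157 CPM in inflammatory, 106 and 147 CPM in lipid-laden and 136 and 110 CPM in other macrophages.

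The inhibitory receptor moved the other way in resident cells. Fcgr2b was 839 CPM [771 to 912] in the pool labelled wild-type and 1184 CPM [1043 to 1338] in the pool labelled Saa3-/-, with intervals that do not overlap, though the 1.41-fold difference was short of the limit. The 5 highest cells held 33.2% and 47.1% of the molecules. It was 535 and 400 CPM in lipid-laden cells and 723 and 832 CPM in inflammatory cells. Syk in other macrophages was 299 and 410 CPM, 1.38-fold higher in the pool labelled Saa3-/-, also with intervals that do not overlap. In the pool labelled Saa3-/- 1 cell held 24 of the 123 molecules and 5 cells 43.9%, against 20.8% in the pool labelled wild-type.

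**Figure D3:**
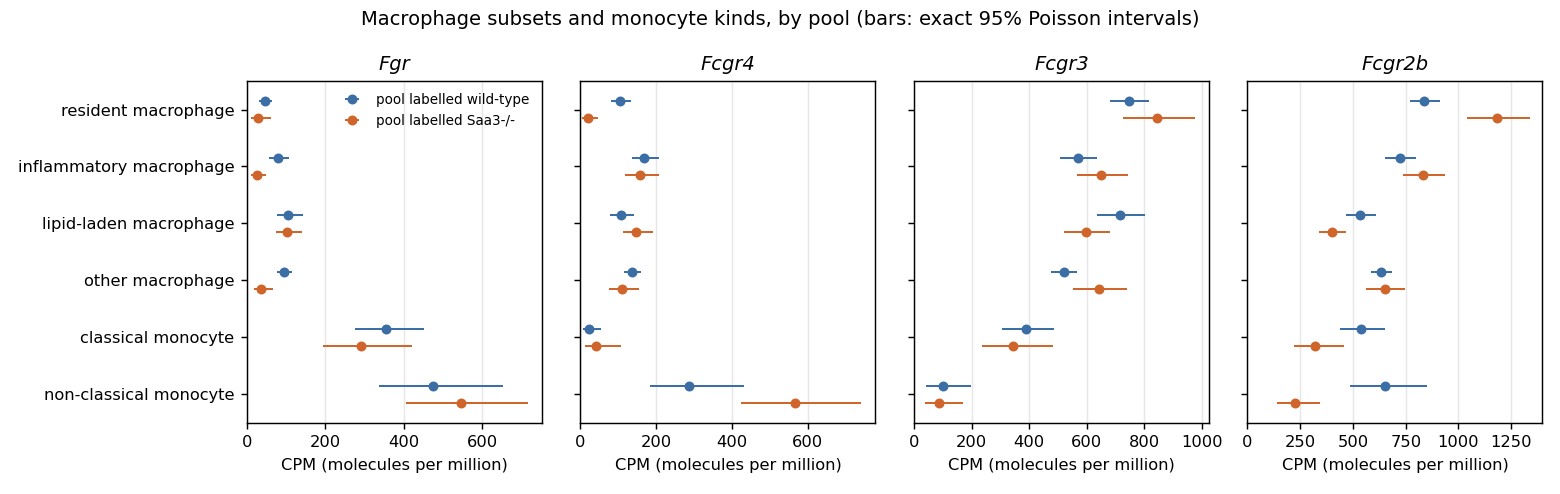
Levels (CPM) of Fgr, Fcgr4, Fcgr3 and Fcgr2b in macrophage subsets and monocyte kinds of the 2 pools, with exact 95% Poisson intervals that cover counting error only. Fcgr4 in resident macrophages (105 and 18.6 CPM) and Fgr in inflammatory macrophages (79.5 and 24.7 CPM) stand apart between pools.

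In monocytes, Fcgr4 was 101 CPM [66.3 to 146] in the pool labelled wild-type and 300 CPM [228 to 389] in the pool labelled Saa3-/-, 2.96-fold higher, from 27 and 57 molecules in 37 cells each. Fcgr2b was 570 CPM [484 to 668] and 274 CPM [205 to 359], 2.07-fold lower, from 153 and 52 molecules. Neither pair of intervals overlaps. Of 6 genes compared, 1 was higher and 1 lower, where 12.6% of 1803 genes were at least 1.5-fold higher and 9.15% lower. Fcgr3 was 302 and 216 CPM, Fgr 391 and 416 CPM, Syk 395 and 364 CPM and Fcer1g 2486 and 2704 CPM, all within 1.5-fold. Fcgr1, at 52.2 and 63.3 CPM, had too few molecules (14 and 12) to be compared.

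The Fcgr4 difference held its side of the limit in all 11 alternatives, with log2 values from 1.24 to 1.86. But 5 cells held 66.7% and 57.9% of monocyte Fcgr4 molecules in the pools labelled wild-type and Saa3-/-. At equal depth 27.8% [14.2 to 45.2] and 46.9% [29.1 to 65.3] of monocytes held an Fcgr4 molecule, with intervals that overlap. The Fcgr2b difference ran from -1.53 to -0.52, and was inside 1.5-fold when monocytes were taken from clusters. In both pools 5 cells held 62.7% and 59.6% of monocyte Fcgr2b molecules, and the highest cell of the pool labelled wild-type held 31. Macrophage markers summed to 1886 and 1613 CPM in the monocyte gate (8 of 8 detected in both pools), and their part in the difference was not tested. Without cells that pass another lineage's gate the Fcgr2b difference was -0.75. Neutrophil markers summed to 160 CPM [116 to 216] and 485 CPM [391 to 595] in the monocyte gate. In each pool 4 of 7 were detected, and Cxcr2 and Mmp9 were at 0 in both. Neutrophils themselves held 17707 CPM of the marker S100a9 alone. Their Fcgr4 level was 201 CPM (4 molecules) and 159 CPM (10 molecules) in the 2 pools, against 101 and 300 CPM in monocytes. The part of neutrophil molecules in the Fcgr4 difference was not tested. Without cells that pass another lineage's gate the Fcgr4 difference was 1.72.

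Blood monocytes come in a classical kind (markers Ly6c2, Ccr2 and others) and a non-classical, patrolling kind (markers Ace, Treml4 and others), and FcγRIV is known as a receptor of the second. The split used here was made after the pool difference was seen. Classical markers summed to 3922 CPM in the pool labelled wild-type and 2383 CPM in the other, and non-classical markers to 727 and 1186 CPM. Non-classical cells were 13 of 37 (35.1% [20.2 to 52.5]) and 22 of 37 (59.5% [42.1 to 75.2]), with intervals that overlap. Fcgr4 was 12.3-fold higher in non-classical than in classical cells in each pool, and Fcgr3 was 3.67-fold and 3.82-fold lower. These folds rest on few molecules. Classical cells held 4 Fcgr4 molecules in each pool (21.2 CPM [5.79 to 54.4] and 41.5 CPM [11.3 to 106]), and non-classical cells held 8 Fcgr3 molecules in each. At the 2-fold limit in both pools, 4.83% of 1803 genes were higher and 3.83% lower.

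Within non-classical cells, Fcgr4 was 288 CPM (23 molecules) in the pool labelled wild-type and 567 CPM (53 molecules) in the pool labelled Saa3-/-, 1.95-fold apart with intervals that overlap. Within classical cells it was 21.2 and 41.5 CPM. The larger non-classical share and the higher level per kind cannot be told apart at these counts. Fcgr2b was 2.85-fold lower in non-classical cells of the pool labelled Saa3-/-, 651 and 225 CPM without overlap. This rests on 52 and 21 molecules in 13 and 22 cells. No share of all genes that differ between pools was taken within monocyte kinds, so the fold has no background. In classical cells Fcgr2b was 536 and 322 CPM, with intervals that overlap. Fgr was 475 and 546 CPM in non-classical and 356 and 291 CPM in classical cells.

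The share of activating receptors summarises these values. It is the sum of Fcgr1, Fcgr3 and Fcgr4 molecules as a percent of the sum of those and Fcgr2b. Since molecules are not scaled to gene length or affinity, it can be compared between cell groups only. In macrophages it was 56.0% [54.5 to 57.5] in the pool labelled wild-type and 56.0% [53.7 to 58.2] in the pool labelled Saa3-/-, with intervals that overlap. In monocytes it was 44.4% [38.4 to 50.5] and 67.9% [60.1 to 75], without overlap. In B cells it was 42.1% [33.9 to 50.5] and 34.0% [26.7 to 41.8], and in dendritic cells 38.8% [31.2 to 46.8] and 23.6% [15.2 to 33.8]. Among macrophages, lipid-laden cells had the highest shares, 65.7% [61.9 to 69.4] and 69.2% [64.9 to 73.2]. Both lie above those of inflammatory cells (53.4% and 52.0%) and other macrophages (54.1% and 56.2%) beyond the intervals. Resident cells had 54.8% [52.0 to 57.6] in the pool labelled wild-type and 46.5% [42.0 to 51.1] in the pool labelled Saa3-/-. Non-classical monocytes had 38.1% [27.7 to 49.3] and 75% [64.4 to 83.8].

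**Figure D4:**
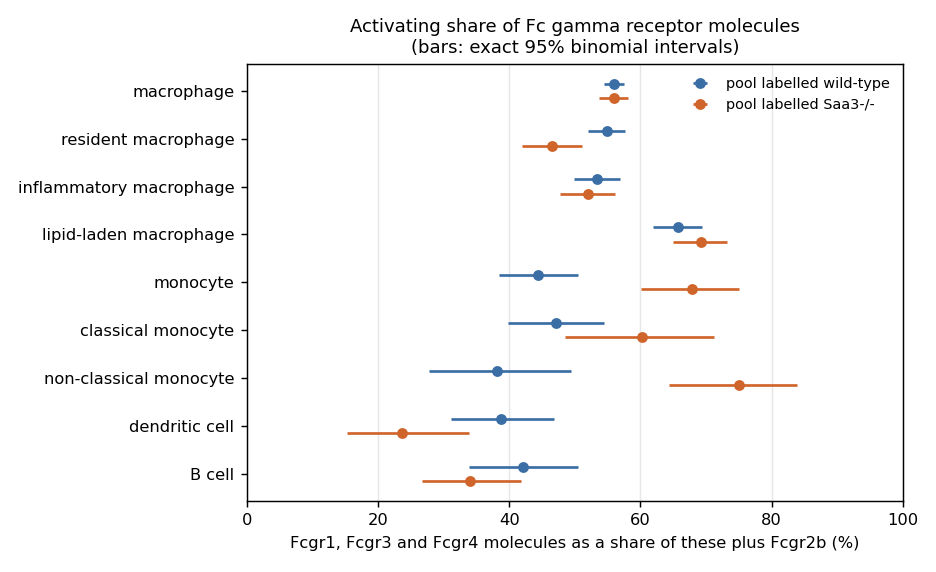
Activating receptor molecules (Fcgr1, Fcgr3 and Fcgr4) as a percent of these and Fcgr2b, by cell group and pool, with exact 95% binomial intervals that cover counting error only. Macrophages stand at 56.0% in both pools, while monocytes stand at 44.4% and 67.9%.

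Outside these cells the pool differences were thin. In B cells Fcgr3 was 165 and 73.4 CPM, the 1 gene of 4 past 1.5-fold and lower (9.94% of 2929 genes lower, 10.8% higher). Its log2 difference moved from -1.16 to -0.28 once cells of another lineage's gate were left out. In dendritic cells Fcgr3 was 95.2 and 61.4 CPM and Fgr 95.2 and 146 CPM, 1 gene lower and 1 higher past 1.5-fold (10.9% of 2479 genes lower, 8.75% higher). Their intervals overlap between pools. Without cells of another lineage's gate the Fcgr3 difference turned to 0.27, and macrophage markers in that gate were 1713 and 1071 CPM. In fibroblasts Fcer1g was 225 and 135 CPM, Fcgr2b 59.8 and 28.4 CPM and Syk 42.6 and 27.1 CPM. All 3 genes compared were lower in the pool labelled Saa3-/-, against 8.1% of 5541 genes lower and 7.31% higher. Macrophage markers in the fibroblast gate were 1010 and 594 CPM (8 of 8 detected in both pools). Without cells of another lineage's gate the Fcer1g difference was -0.07 and that of Fcgr2b -0.37. In T cells (6.8% of genes higher, 6.72% lower), thymocytes (18.4% higher, 11.8% lower) and smooth muscle cells (6.05% higher, 5.44% lower), Fcer1g alone had enough molecules to compare and it was within 1.5-fold.

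Other genes of the pathway were followed in macrophages from lists of Fc receptors, adaptors, kinases and inhibitors. Of 53 genes with enough molecules, 1 was at least 1.5-fold higher and 6 at least 1.5-fold lower in the pool labelled Saa3-/-, against 5.82% of all genes higher and 4.65% lower. The median log2 difference was -0.03 for the 53 and 0.03 for all genes. The counts by list that follow stand against the same shares, and lists of 4 to 14 genes are too short to be read against them. Among other Fc receptors 4 of 13 listed could be compared (median -0.03), and 0 were higher and 1 lower. The most abundant were Fcrls (494 and 483 CPM), an Fc receptor-like gene, and Fcgrt (234 and 229 CPM), the neonatal Fc receptor that recycles IgG. Fcmr, the IgM receptor of B cells, was 25.2 and 10.6 CPM. Of 5 ITAM adaptors (6 listed, median 0.19) 0 passed. Tyrobp, the DAP12 adaptor that works beside the γ chain, was 1358 and 1583 CPM, and Cd79a, the B cell receptor chain, 86.1 and 64.4 CPM.

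Of 9 Src family kinases and regulators (10 listed, median -0.13), 1 was higher and 2 lower. Src was 15.3 and 26.1 CPM, Lck, the T cell kinase, 24.1 and 14.7 CPM, and Blk, a B cell kinase, 16.1 and 9.78 CPM. Lymphocyte markers were present at a low level in the macrophage gate, with B cell markers at 215 and 167 CPM (6 of 6 detected) and T cell markers at 225 and 191 CPM (8 of 8), and their part in Lck, Blk and Fcmr was not tested. Lyn, a Src family kinase that macrophages use beside Fgr, was 446 and 374 CPM, within 1.5-fold. Ptprc, the phosphatase CD45 that frees Src family kinases from inhibition, was 828 and 757 CPM. Of 14 genes that act downstream of Syk (16 listed, median 0.10), 0 passed, with Rac2, a GTPase of the phagocyte oxidase, at 478 and 332 CPM and the kinase Prkcd at 279 and 263 CPM. Of 7 phosphatases and adaptors that carry the inhibitory signal (7 listed, median -0.16), 0 passed, with SHP-1 (Ptpn6) at 242 and 217 CPM and SHIP-1 (Inpp5d), the phosphatase that FcγRIIb recruits, at 217 and 227 CPM.

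Of 10 genes listed as other ITIM receptors (all 10 compared, median 0.08), 0 were at least 1.5-fold higher and 2 lower (5.82% and 4.65% of all genes). Pirb was 238 and 139 CPM, a log2 difference of -0.77, and Clec4a2 232 and 135 CPM, a difference of -0.78, whereas Clec12a was 295 and 298 CPM. Lilr4b, the most abundant gene listed, was 580 and 691 CPM. It is a close relative of the ITIM receptor Lilrb4a and is not itself known to carry an ITIM. Of 4 other receptors that signal through Fcer1g (7 listed, median -0.41), 1 was lower, Pira2, at 84.9 and 39.9 CPM (-1.08). The lectins Clec4d (117 and 94.6 CPM) and Clec4e (102 and 125 CPM) were within 1.5-fold. Pirb, Pira2 and Lilr4b belong to families of near copies, so their counts are uncertain.

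Across 16 groups (8 cell types in each of the 2 pools), the genes whose levels ran most like each member were found by Pearson correlation of log2(CPM + 10) among 8160 genes. The groups share a library, so r is a description. Fcgr1 ran most like Fcgr3 (r = 0.97), the lipid droplet gene Plin2 (0.97) and the macrophage growth factor receptor Csf1r (0.96). Fcgr3 ran like Fcgr1, Csf1r and Clec4d (each 0.97). Fcgr4 ran like the phagosomal metal transporter Slc11a1 (0.95), Zeb2os (0.94) and Lilra5 (0.94). Fcgr2b ran like the lysosomal proteases Ctss (0.98) and Ctsc (0.97) and like Pld4 (0.97). Fcer1g ran like Clec4a3, Ms4a6c and Cd68 (each 0.98). Fgr ran like Ifitm6 (0.96), Gpr35 (0.96) and Sirpb1a (0.95), and its r with the receptors was lower, 0.71 with Fcgr1 and 0.71 with Fcgr3. Syk ran like Plcg2 (0.98), a phospholipase it activates, Lyn (0.98) and Cd180 (0.97), the last known from B cells, and its r with Fcgr2b, the member also high in B cells, was 0.93.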

How the data were processed

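Molecules (unique molecular identifiers) of 26189 genes were counted by the authors per cell. The deposited values are raw counts, made with the BD Rhapsody WTA Analysis Pipeline 1.11.1 against GRCm38 and GENCODE release 19, per the file headers. Reads in introns were counted too, per the same file headers. Whether counting used strand is not given in the sources used here. Members and gene lists were chosen with earlier results of these data known. Cells with up to 25% mitochondrial molecules were kept. Markers were scored per cell as the mean z of their log-scaled levels, and a cell took its best-scoring type if that mean passed 0.3 and at least 3 markers were found. That limit, and the split of monocytes, were chosen after seeing the data. Counts were summed per type and pool and given as CPM. Differences used a pseudocount of 0.5 molecules, genes with at least 50 molecules and types with at least 20 cells in a pool for the background, and no test, since each genotype is 1 pool. The text names all 7 members, the 3 genes most like each, and from each pathway list the genes past 1.5-fold and the 2 most abundant. Alternatives were stricter cell filters, Leiden clusters, a gate limit of 0.5, removal of cells passing other gates or of the 2 highest cells, equal cell weights, thinning to 3000 molecules (109 and 163 shallower cells left out) and other scaling (edgeR 4.0.16 TMM factors, median of ratios). Python 3.11.15, scanpy 1.11.5 and scipy 1.17.1 were used. The ratio code was tested on simulated data. The 4 samples of cultured macrophages were not analysed here. Some items are not reported here.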

Additional observations from a re-analysis of the deposited data

How the results depend on the processing

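With 1 pool per genotype, the spread between mice is unknown, and no value here separates genotype from pool. No paired analysis was possible because the pools carry no replicate number. Leaving out a replicate was not possible for the same reason. Each value was compared anew under each alternative that applied to it, and the counts are of these comparisons. For main values 91 comparisons stayed within their limits and 15 moved. For the remaining values 507 stayed, 78 moved and 1 reversed. A reversal was counted only for a difference past 1.5-fold. Smaller differences changed sign as well, such as Fcer1g in B cells (log2 difference -0.35), in 5 of 11 alternatives. With Leiden clusters, 0 genes passed 1.5-fold in macrophages against 1, Fcgr2b in monocytes was -0.52 on the log2 scale, and the activating share of monocytes in the pool labelled wild-type was 51.1%. Without cells that pass another lineage's gate, Fcgr3 in dendritic cells reversed to 0.27, the activating share of macrophages in the pool labelled wild-type was 57.8%, and 1 gene each, against 0, was higher in resident (Fcgr1) and lipid-laden (Fgr) macrophages. With each cell weighing the same, that macrophage share was 58.2% and the monocyte share 51.9%. With cells thinned to 3000 molecules, the activating share of monocytes in the pool labelled Saa3-/- was 79.2%. The background in macrophages was 1.87% higher and 2.64% lower with at least 200 molecules, and 0.824% and 0.992% at 2-fold. At 8-fold, 3.28% of genes were higher and 2.19% lower in macrophages than in T cells. The causes were not tested. Every shift of all genes by scaling was under 0.1 on the log2 scale. Depth limits Fcgr1 in monocytes and all genes in neutrophils and mast cells, which were too few to compare between pools.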
